A study of Mus musculus with 55 samples.

Results

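The genes described here encode 8 enzymes that add a methyl or an acetyl group to small molecules: the methyltransferases Tpmt, Nnmt, Gnmt, Gamt and Inmt and the acetyltransferases Nat1, Nat2 and Nat8. They were chosen by symbol, and each of the 8 symbols matched 1 of the 37620 genes in the files, with 24 annotated isoforms among them. RNA was sequenced from the livers of 55 untreated male mice of 29 Collaborative Cross (CC) lines, which are inbred lines that each carry a different mosaic of the genomes of common founder strains. The mice were 8 to 11.9 weeks old and weighed 12.8 to 38 g, and no treatment or transgene distinguished any line from another.

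A single mouse was available for each of 8 lines, IL-1141, IL-1452, IL-2126, IL-2689, IL-2693, IL-4032, IL-4141 and IL-557. The lines with 3 mice were IL-2156, IL-2750, IL-611, IL-670 and IL-785, 5 in all. The other 16 lines had 2 mice each: IL-1052, IL-1061, IL-1513, IL-2011, IL-2146, IL-219, IL-2680, IL-3348, IL-3438, IL-3575, IL-3912, IL-4052, IL-4457, IL-519, IL-521 and IL-72. Line mates are near copies of each other in genotype, and whether they shared a litter or cage is not stated, so the p-values below measure differences between lines only against the spread of line mates.

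Methylation and acetylation are conjugation reactions. Methyltransferases take their methyl group from S-adenosylmethionine, which the liver makes from methionine and rebuilds through the methionine cycle, while acetyltransferases take theirs from acetyl-CoA. Some of these enzymes act on drugs: Tpmt inactivates thiopurines, and the arylamine acetyltransferases act on arylamine and hydrazine drugs. Others belong mainly to normal metabolism: Gnmt consumes surplus S-adenosylmethionine by methylating glycine, Gamt makes creatine, and Nnmt methylates nicotinamide.

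The libraries held 20542671 to 33953036 fragments assigned to genes (median 27700357). Hepatocyte markers dominated every library, with a summed level of 20667 to 74225 FPKM (fragments scaled to transcript length and library depth, a level per length). Kidney markers stayed at or under 0.04 FPKM. IL-3912 replicate 1 held skeletal muscle transcripts, with a muscle marker sum of 932 FPKM against a median of 0, and IL-3575 replicate 2 had the highest pancreas marker sum, 139 FPKM against a median of 22.0. The labels of IL-1052 and IL-2750 did not match how their mice grouped. Over 5949 variable genes and among these 5 mice, IL-1052 replicate 1 correlated best with IL-2750 replicate 1 (Spearman's rho 0.972) and less with its own line mate (0.913), and IL-1052 replicate 2 correlated best with IL-2750 replicate 2 (0.955). Pairs of line mates in the other lines had a median of 0.974, and pairs from different lines 0.895. The tests of gene levels among lines, the counts of lines called and some shares of variance are therefore given with and without IL-1052 and IL-2750. Other values over lines include them.

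A further difference concerned the acute phase. The sum of Saa1 and Saa2, serum amyloid A genes that the liver induces in inflammation, ran from 7.53 to 81526 FPKM between mice (median 261), and 7 mice of 5 lines exceeded 10000 FPKM. These were all 3 mice of IL-2156 and 1 mouse each of IL-2011, IL-3438, IL-3575 and IL-72. Their values are given beside the members they touch, and the part of inflammation in any member's level was not tested.

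All 8 genes differed among the 21 lines with 2 or 3 mice. This count has to be read against the background, since 88.5% of the 15285 genes tested passed the same test. The adjusted p was 3.83e-07 for Tpmt, 2.73e-08 for Nnmt, 0.000281 for Gnmt, 1.25e-06 for Gamt and 0.000337 for Inmt. Among the acetyltransferases it was 0.00250 for Nat1, 1.32e-05 for Nat2 and 0.000167 for Nat8. Without the 5 lines with high Saa1 and Saa2 all 8 still passed, with adjusted p from 3.52e-08 for Gamt to 0.00685 for Nat1, and without IL-1052 and IL-2750 from 6.32e-08 for Tpmt to 0.000427 for Gnmt. In liver tissue as a whole, a lower level can mean fewer cells of a type or less RNA per cell, and these cannot be told apart.

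The genes spanned more than 3 orders of magnitude in level. Gnmt was the most abundant, with a mean over lines of 988 FPKM, followed by Inmt (252), Gamt (121), Tpmt (67.8), Nnmt (32.1), Nat2 (9.80), Nat8 (7.90) and Nat1 (0.670). They also differed in how far the lines lay apart. The highest line mean exceeded the lowest by 3.10 times for Gnmt, 3.52 for Gamt, 5.09 for Nat2 and 6.57 for Tpmt, by 20.1 for Inmt and 20.9 for Nat8, and by 134 for Nnmt. Nat1 ran from 0.055 to 1.16 FPKM. The median ratio over 5771 variable genes was 2.53 and its upper quartile 4.47.

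**Figure D1:**
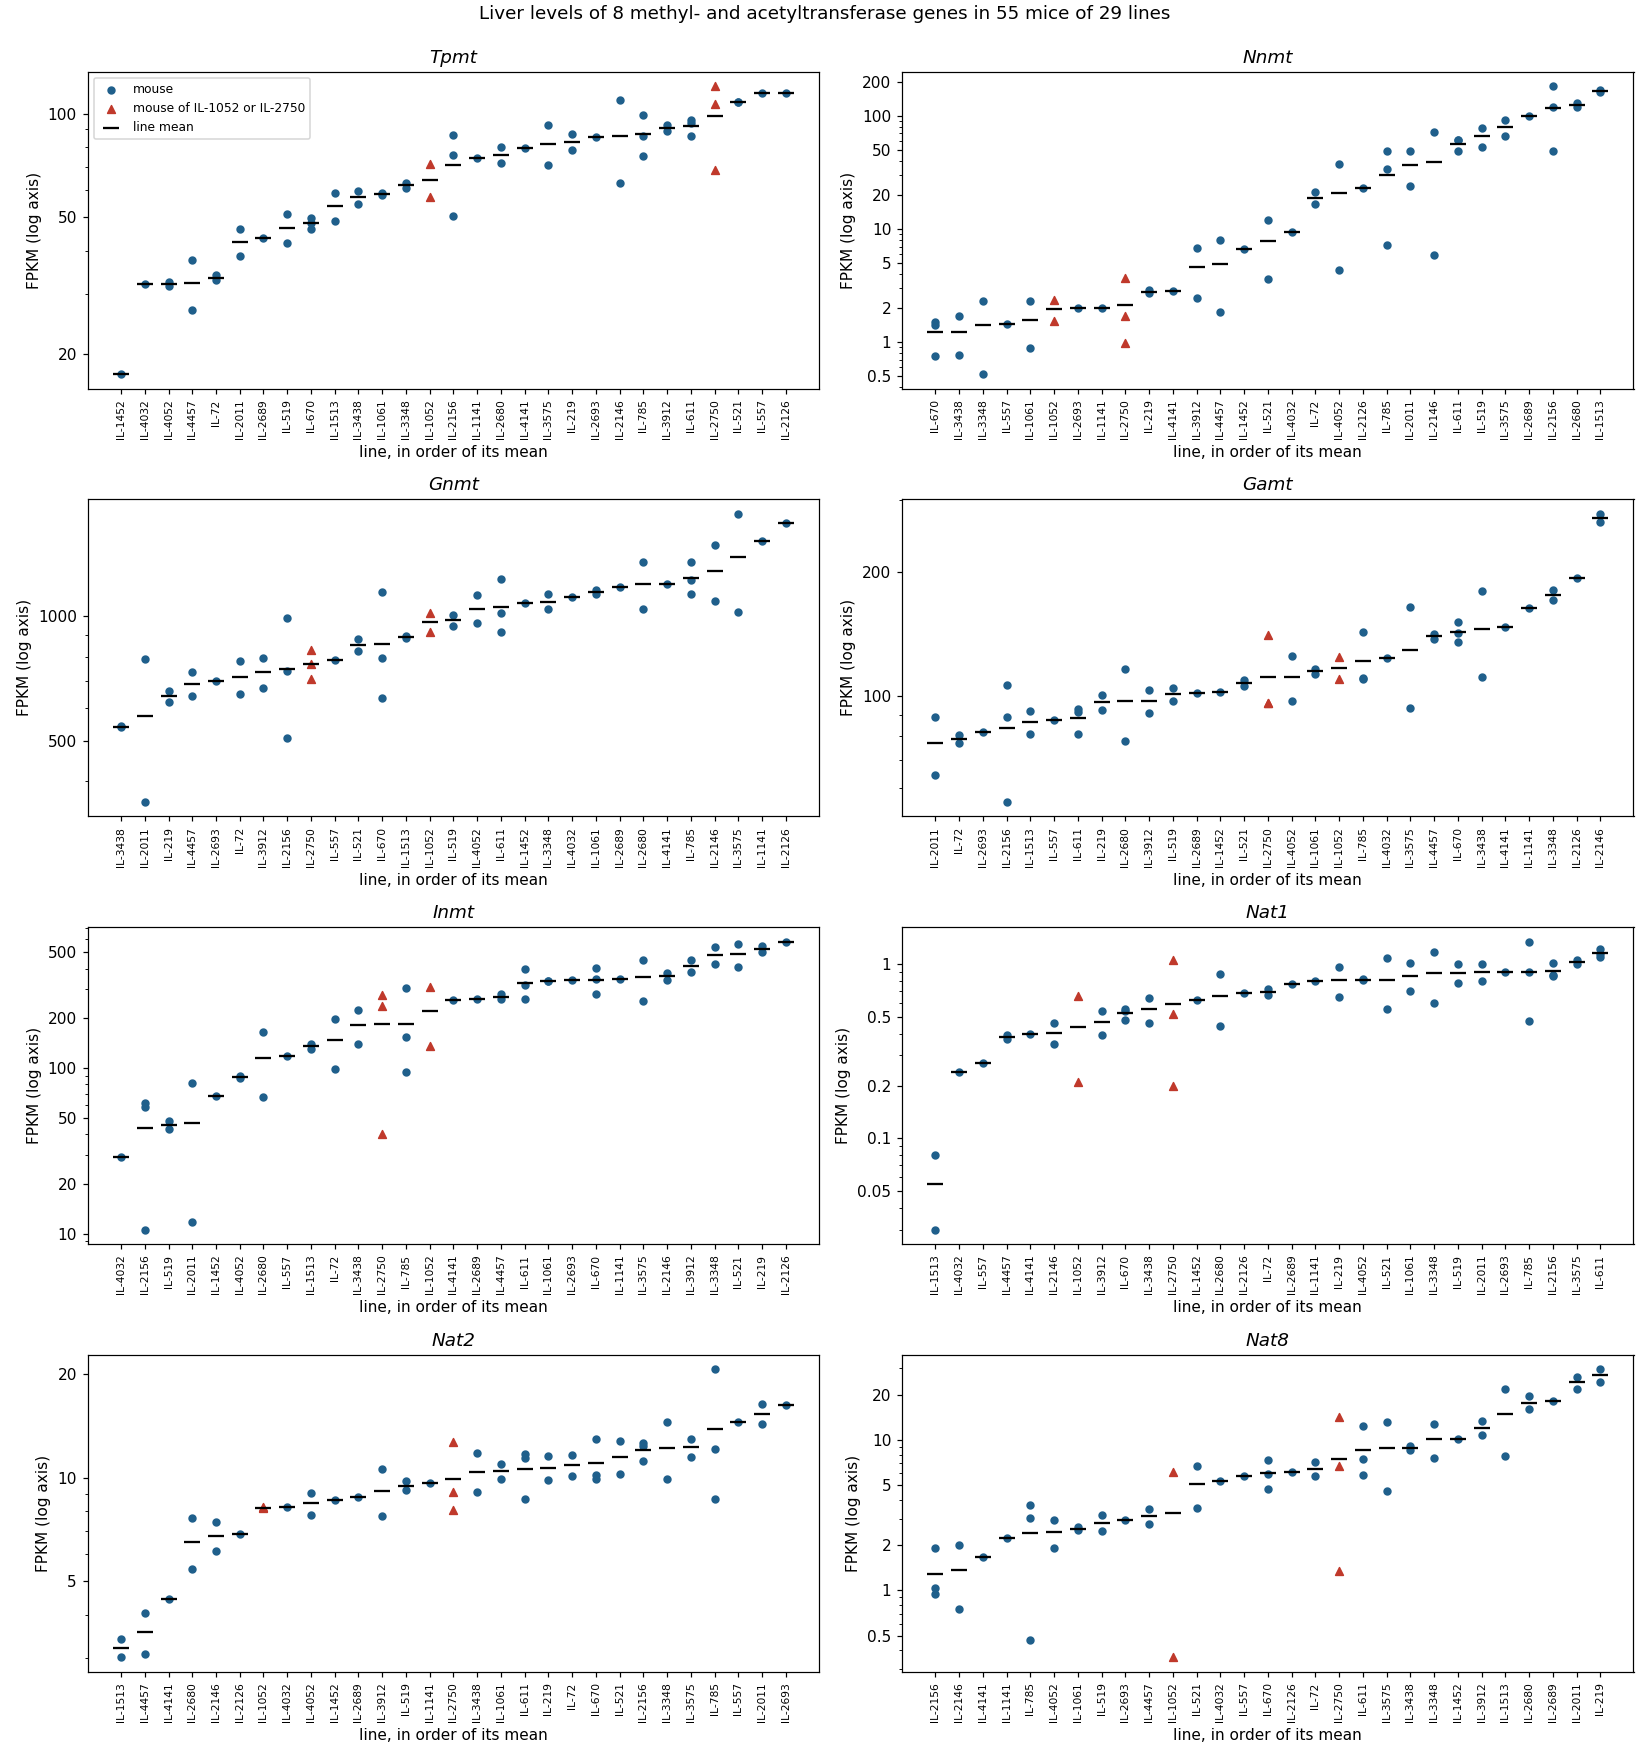
Level of each gene in every mouse (points, FPKM on a log axis), with the 29 lines in order of their mean (bars). Triangles mark the mice of IL-1052 and IL-2750, which did not group by label. Nnmt ran from 0.52 to 182 FPKM between mice, whereas Gnmt ran from 357 to 1766.

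Each line was then set against the mean of the other 20 lines. Across the 8 genes, 50 of 168 gene-line pairs passed (29.8%), where 18.2% of pairs passed over all genes. The line was higher in 26 pairs and lower in 24, beside a background of 11.0% of pairs higher and 7.15% lower. Nnmt accounted for 15 of the 50 and Tpmt for 8, followed by Gamt with 6, Gnmt, Nat2 and Nat8 with 5 each, Inmt with 4 and Nat1 with 2. The median gene passed in 3 lines. IL-2011 was called for 7 of the 8 genes, more than any other line, and IL-3912 for none. The share of all genes called in each single line was not computed, so these counts by line are not a result about the 8 genes. One IL-2011 mouse had a Saa sum of 56316 FPKM. Without the 5 high-Saa lines, IL-3912 was called lower for Gnmt (adjusted p = 0.0256) and Gamt (adjusted p = 0.0128). Without IL-1052 and IL-2750, Tpmt was called higher in 7 lines and lower in 5, Inmt in 4 and 3, Nat8 in 4 and 4, Nat1 in 2 and 1, and Nnmt in 6 and 5, while the counts of Gnmt, Gamt and Nat2 were as before.

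**Figure D2:**
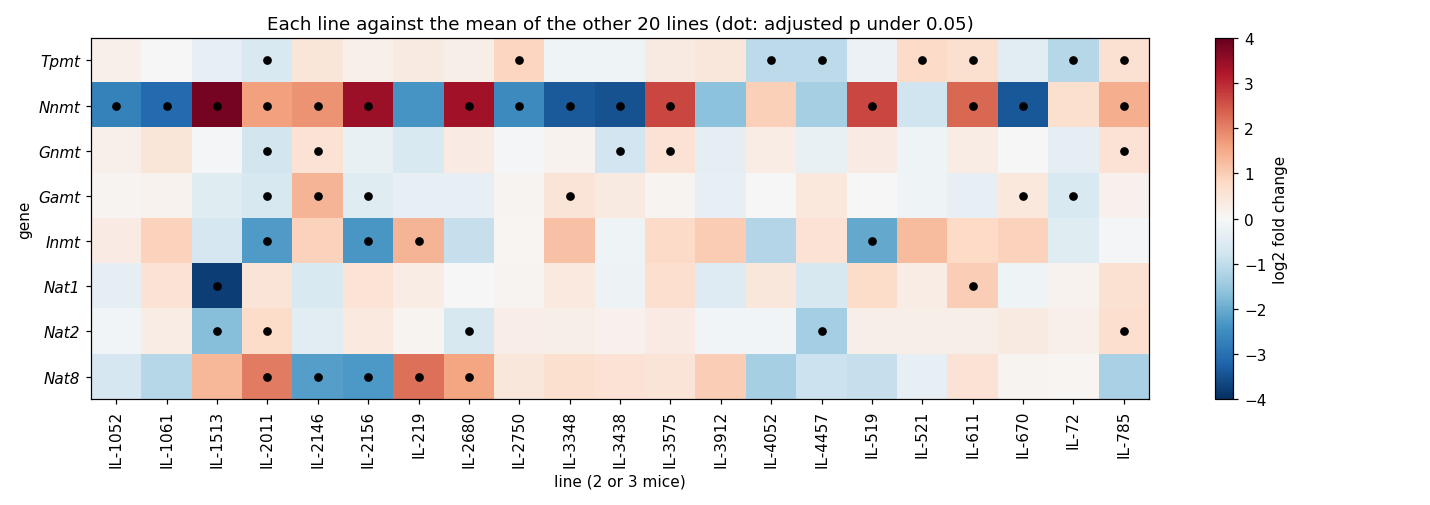
Fitted log2 fold change of each line with 2 or 3 mice against the mean of the other 20 lines (red higher, blue lower), for 8 genes and 21 lines. Dots mark adjusted p under 0.05: 50 of the 168 cells, 15 of them for Nnmt.

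Nnmt, nicotinamide N-methyltransferase, couples the removal of nicotinamide, a breakdown product of NAD, to the use of S-adenosylmethionine. The gene (ENSMUSG00000032271) lies on the minus strand at chr9:48399982-48413258 of mm9. Among its 29 line means, none of the 28 gaps between neighbouring lines exceeded the pooled spread of line mates (0.91 on the log2(FPKM + 1) scale). With so many lines and so wide a spread of mates, this cannot tell a continuous slope from separate groups. At the top stood IL-1513, with 162 and 169 FPKM in its 2 mice. IL-2680 followed with 119 and 129 FPKM, IL-2156 with 49.3, 119 and 182, IL-2689 with 100.2 in its single mouse, and IL-3575 with 65.9 and 92.5. At the bottom, IL-670 held 0.75 to 1.52 FPKM in 3 mice, IL-3438 0.77 and 1.71, and IL-3348 0.52 and 2.30. No mouse of these last 3 lines overlapped any mouse of the first 5, which follows largely from picking the lines by their means.

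In the contrasts, Nnmt was higher in 9 lines. The rise was by 3.82 ± 0.43 on the log2 scale (SE, adjusted p = 1.02e-07) in IL-1513, 3.41 ± 0.39 in IL-2156, 3.36 ± 0.45 in IL-2680, 2.67 ± 0.48 in IL-519, 2.66 ± 0.48 in IL-3575 and 2.30 ± 0.43 in IL-611. It was smaller in IL-2146 (1.78 ± 0.53), IL-2011 (1.65 ± 0.55) and IL-785 (1.46 ± 0.47). Nnmt was lower in 6 lines: it fell by 3.47 ± 0.97 in IL-3438, 3.38 ± 0.79 in IL-670, 3.37 ± 0.94 in IL-3348, 3.10 ± 0.96 in IL-1061, 2.71 ± 0.89 in IL-1052 and 2.53 ± 0.72 in IL-2750. All 5 mice of the intermixed lines were low, but replicate 2 of each (2.36 FPKM in IL-1052 and 3.67 in IL-2750) lay above the other 3 (0.99 to 1.70).

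Line mates nevertheless differed more in Nnmt than in most of the other genes, with a median ratio between the highest and lowest mate of 2.22, against 1.11 for Tpmt. The widest ratio, 12.1, was in IL-2146, where the mice held 5.94 and 71.7 FPKM. Their sums of Saa1 and Saa2 moved the same way, 638 FPKM in the first and 5788 in the second. IL-785 showed the same order, with 7.28, 34.0 and 49.0 FPKM of Nnmt at Saa sums of 7.53, 378 and 1984 FPKM. Over the 21 lines with 2 or 3 mice, the mate with the most Saa also had more Nnmt than the mate with the least in 16 lines and less in 5. The same count over all genes was not made, here or for the genes below. These counts include the intermixed lines and lines whose mates barely differed in Saa, such as IL-219 (24.3 and 20.9 FPKM). IL-4052 went against the order of more Nnmt with more Saa, with 37.6 FPKM of Nnmt at a Saa sum of 261 FPKM and 4.35 at 378. IL-3438 replicate 2 stood apart from this order, with a Saa sum of 16614 FPKM and 1.71 FPKM of Nnmt. So did IL-1513, the line with the highest mean Nnmt, with Saa sums of 202 and 377 FPKM. Spearman's rho between the line means of Nnmt and of Saa was 0.36 over 29 lines, a description in which each point shares its libraries.

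The isoforms of Nnmt differed between lines as well. The annotated protein-coding isoforms are Nnmt-001 (ENSMUST00000034808), with 3 exons and a reading frame of 264 residues, and Nnmt-002 (ENSMUST00000119426), with 4 exons and 157 residues. They start and end at the same bases and differ only in a stretch of 131 bases within exon 3 of Nnmt-001, at chr9:48400288-48400418, which is coding in Nnmt-001 and is left out of Nnmt-002 as an intron. The stretch is shown because this single difference separates the isoforms whose percentages are given next. It begins with GT and ends with AG, the usual ends of an intron, and its length is not a multiple of 3, so that leaving it out shifts the reading frame. The sequence is that of the mm9 reference genome, minus strand, chr9:48400268-48400438, with the stretch absent from Nnmt-002 in capitals and 20 coding bases on either side in lower case.
Nnmt exon 3: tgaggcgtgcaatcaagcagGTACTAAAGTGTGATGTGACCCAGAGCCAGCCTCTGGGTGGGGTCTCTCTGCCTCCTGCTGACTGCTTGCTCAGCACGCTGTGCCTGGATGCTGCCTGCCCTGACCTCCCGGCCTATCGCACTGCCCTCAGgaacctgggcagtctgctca

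Over all lines with 2 or 3 mice, the percentage of Nnmt transcripts assigned to Nnmt-002 differed by line (limma on normal scores, adjusted p = 0.00698), as did that of Nnmt-001 (adjusted p = 0.00719). Among all 21415 isoforms tested, 28.1% passed. The percentage means little where a mouse has few Nnmt fragments, and the counts ran from 14 to 4901. A limit of at least 300 fragments, set after the data were seen, left 25 mice of 14 lines. Their values ran from 0 to 48.8%, and cuts at 5% and 20%, also set afterwards, divide them. Nnmt-002 made up over 20% in 10 mice, spread from 23.0% to 48.8%, under 5% in 12 and something between in 3.

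All mice over 20% came from 5 lines. IL-519 had 43.1% ± 8.03 (SD, n = 2), IL-3575 42.1% ± 5.08 (n = 2), IL-611 32.4% ± 5.09 (n = 3), IL-2680 30.9% ± 11.2 (n = 2) and IL-2689 28.1% in its 1 mouse. In IL-2156, one of the lines richest in Nnmt, the isoform made up 0.70% ± 0.70 (n = 3) of between 1392 and 4270 fragments per mouse. It was likewise low in IL-2011 (2.76% ± 0.92, n = 2), IL-72 (1.05% ± 0.16, n = 2) and IL-785 (0.77% ± 1.08, n = 2), and was at 0.05% or less in the single deep mice of IL-2146, IL-2126 and IL-521. IL-1513, which had the most Nnmt, lay between with 11.2% ± 2.82 (n = 2), as did the deep mouse of IL-4052 with 13.5%. A high level of the gene thus occurred with high and with low percentages of Nnmt-002. Among the 20 deep mice of the 9 lines that had at least 2 of them, 0.928 of the variance in the percentage lay between lines. Over all 55 mice, on normal scores, the share was 0.686. Among the deep mice no line had one over 20% and another under 5%.

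In the 30 mice with fewer fragments the percentages were scattered between 0 and 26.4%. IL-3912 had 25.2% ± 1.73 (n = 2) on 67 and 188 fragments. The reads were aligned to 1 reference genome although the lines carry different founder alleles, and what such differences within the stretch do to the percentages was not tested. Without the 5 lines with high Saa1 and Saa2 the test gave an adjusted p of 0.0305. The percentage of Nnmt-003 (ENSMUST00000128076), annotated as a retained intron, did not pass (adjusted p = 0.390), and Nnmt-004 and Nnmt-005 took too few values to be tested.

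**Figure D3:**
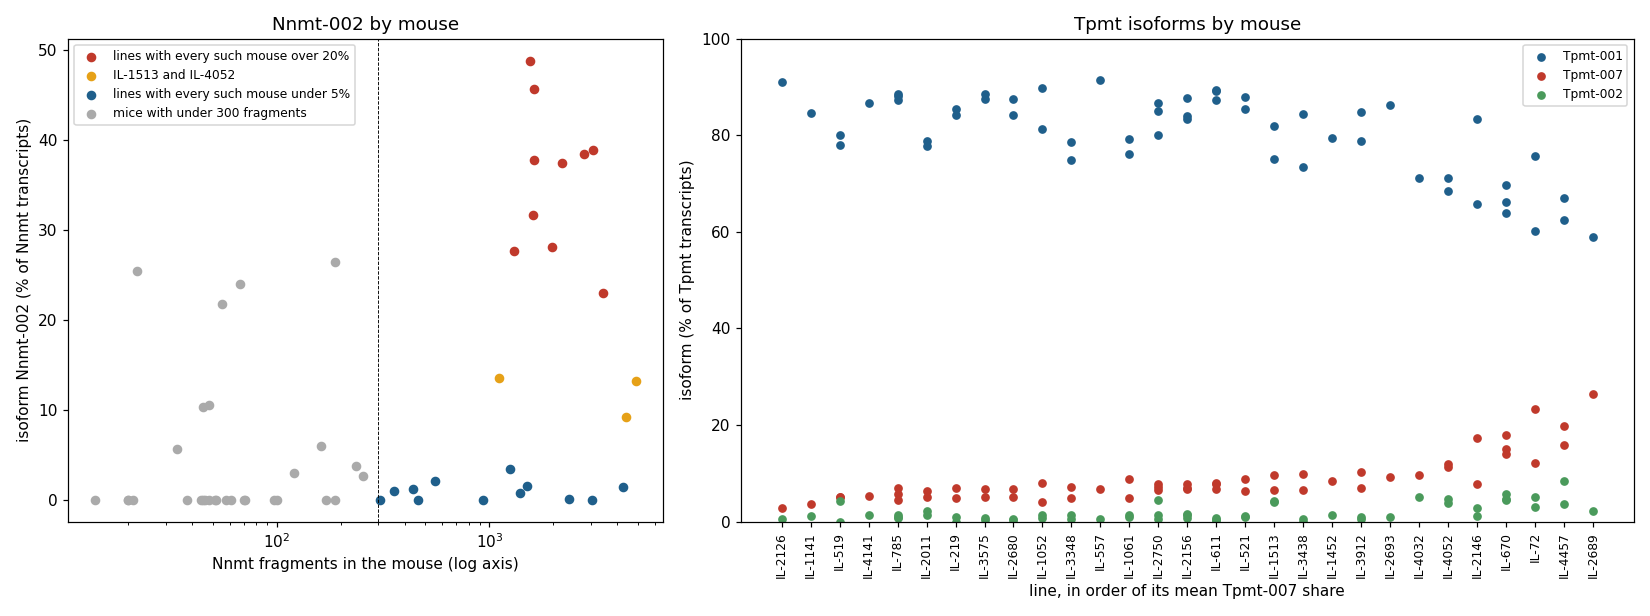
Left, percentage of Nnmt transcripts assigned to Nnmt-002 in each of 55 mice against the mouse's Nnmt fragments (log axis, dashed line at 300); the 25 deeper mice lie over 20% in 10 cases and under 5% in 12. Right, percentages of 3 Tpmt isoforms in each mouse, lines in order of their mean Tpmt-007 share, which rises from 2.79% in IL-2126 to 26.4% in IL-2689.

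Tpmt, thiopurine S-methyltransferase, methylates the sulphur of azathioprine and mercaptopurine metabolites. The gene (ENSMUSG00000021376) occupies chr13:47120539-47140106 of mm9 on the minus strand. Its mates were closer than those of any other gene here (median ratio 1.11), and 0.763 of the variance lay between lines, or 0.827 without the intermixed lines. The single mouse of IL-1452 held 17.5 FPKM, and the gap of 0.83 on the log2(FPKM + 1) scale to the next line was 1 of 2 gaps wider than the pooled spread of mates (0.24). The next 4 lines lay close together, IL-4032 at 32.0, IL-4052 at 32.0 ± 0.61, IL-4457 at 32.2 ± 7.54 and IL-72 at 33.4 ± 0.78 FPKM (SD, n = 2 where given). At the other end, IL-521 had 108 FPKM in both mice, IL-557 115 and IL-2126 115 in 1 mouse each. Every mouse of these 5 low lines, picked by their means, was under 40 FPKM and every mouse of the high ones over 100.

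Tpmt was called higher in 4 lines, by 0.87 ± 0.14 on the log2 scale in IL-2750 (adjusted p = 5.46e-05), 0.76 ± 0.18 in IL-521, 0.65 ± 0.15 in IL-611 and 0.62 ± 0.15 in IL-785. In IL-2750 the labelled mates held 120.1, 68.6 and 107 FPKM, and the lowest of them, replicate 2, was the one that correlated with IL-1052 replicate 2 (57.2 FPKM). The gene was lower in another 4 lines, having dropped by 1.14 ± 0.22 in IL-72, 1.05 ± 0.21 in IL-4457, 1.05 ± 0.21 in IL-4052 and 0.62 ± 0.20 in IL-2011. Of these, IL-72 and IL-2011 each include a mouse with high Saa. IL-72 held 33.9 FPKM of Tpmt at a Saa sum of 2989 FPKM and 32.8 at 14946, and IL-2011 held 46.3 at 1882 and 38.6 at 56316. Over the 21 lines the mate with the most Saa had less Tpmt in 15 and more in 6. Without the 5 high-Saa lines, IL-4052, IL-4457 and IL-670 were called lower.

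The main isoform, Tpmt-001 (ENSMUST00000021806, 240 residues), differed in its share among lines (adjusted p = 0.00315), as did Tpmt-007 (ENSMUST00000124948, adjusted p = 0.0180), Tpmt-006 (ENSMUST00000136864, adjusted p = 0.00255) and Tpmt-002 (ENSMUST00000110118, adjusted p = 0.0219). Tpmt-002 no longer passed without the 5 lines with high Saa (adjusted p = 0.0647). Tpmt-007 is an incomplete model of 315 bases whose second exon is extended at its 5′ end by 16 bases absent from Tpmt-001. They are shown, from chr13:47136949-47136964 of mm9 on the minus strand and in capitals throughout, because they distinguish Tpmt-007, whose percentages are given next.
Tpmt-007 exon 2 extension: ATGTCTTTCCACTTAG

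Apart from that extension, the exons of Tpmt-007 (315 bases) lie within those of Tpmt-001 (1081 bases). What this overlap does to the estimated shares was not tested. The share assigned to Tpmt-007 was 26.4% in IL-2689, 17.8% ± 2.84 (SD, n = 2) in IL-4457, 17.8% ± 7.93 (n = 2) in IL-72 and 15.6% ± 1.99 (n = 3) in IL-670. It was 2.79% in IL-2126 and 5.65% ± 1.29 (n = 3) in IL-785. IL-2689, IL-4457, IL-72 and IL-670 also had the lowest shares of Tpmt-001, from 58.9% in IL-2689 to 68.0% ± 11.1 in IL-72. All 4 had fewer Tpmt fragments, 597 to 1387 per mouse, than the median mouse (1786), and IL-72 and IL-4457 were among the lines called lower. IL-1452, with the least Tpmt of all (409 fragments), had only 8.44% of Tpmt-007. Tpmt-006 starts from another first exon, and its 565 annotated coding bases are not a multiple of 3. It was highest in IL-3348 (16.2% ± 0.50, n = 2) and lowest in IL-557 (1.00%). Tpmt-002 lacks 105 bases inside Tpmt-001, a multiple of 3, as well as 9 and 86 bases at its ends, and reached at most 8.42% in a mouse, of IL-4457. Over the 29 line means Tpmt had a Spearman's rho of 0.45 with the sum of the muscle markers. That sum had a median of 0 FPKM over mice, so this rho largely orders values at or near 0. Gamt had a rho of 0.50 and Inmt of 0.40 with the sum of the hepatocyte markers. The part of either marker sum in the levels was not tested.

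Inmt, indolethylamine N-methyltransferase, methylates tryptamine and related amines as well as thioethers. The gene (ENSMUSG00000003477) is at chr6:55120620-55125037 of mm9, minus strand. It ranged from 10.6 to 582 FPKM between mice. IL-2126 had the most (582 FPKM, 1 mouse), ahead of IL-219 with 500.3 and 544, IL-521 with 411 and 562 and IL-3348 with 423 and 541. IL-4032 had the lowest line mean (29.0 FPKM, 1 mouse), followed by IL-2156 with 10.6, 58.7 and 61.3, IL-519 with 42.7 and 48.3, and IL-2011 with 11.7 and 81.5. Only IL-219 was called higher, by 1.37 ± 0.44 on the log2 scale (adjusted p = 0.0295), and this count was 2 without IL-3912 and 0 with limma on log2(FPKM + 1). Inmt fell by 2.34 ± 0.53 in IL-2156 (adjusted p = 0.00195), 2.27 ± 0.64 in IL-2011 (adjusted p = 0.0122) and 2.04 ± 0.63 in IL-519 (adjusted p = 0.0221).

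In 2 of these 3 low lines the acute-phase genes were high. The lowest Inmt levels of the panel, 10.6 FPKM in IL-2156 replicate 3 and 11.7 in IL-2011 replicate 1, were in the mice with the most Saa, 81526 and 56316 FPKM. The other IL-2011 mouse had 81.5 FPKM of Inmt at a Saa sum of 1882 FPKM. In IL-519 the Saa sums were 237 and 278 FPKM, close to the median. Without the 5 high-Saa lines its fall was 2.35 ± 0.53 (adjusted p = 0.00250). That fit keeps the same IL-519 mice and drops IL-2156 and IL-2011 from the lines they are compared with. It therefore cannot show what part Saa had in IL-519. IL-3575 replicate 2 went the other way, with 451 FPKM of Inmt at a Saa sum of 22064 FPKM against 256 in its mate at 69.0. Over the 21 lines, the mate with the most Saa had less Inmt in 12 and more in 9. The intermixed lines split by mouse and not by label. IL-2750 replicate 2 had 39.9 FPKM and IL-1052 replicate 2 had 135, whereas their 3 labelled mates held 237 to 310. Without these lines the share of variance between lines rose from 0.758 to 0.825.

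**Figure D4:**
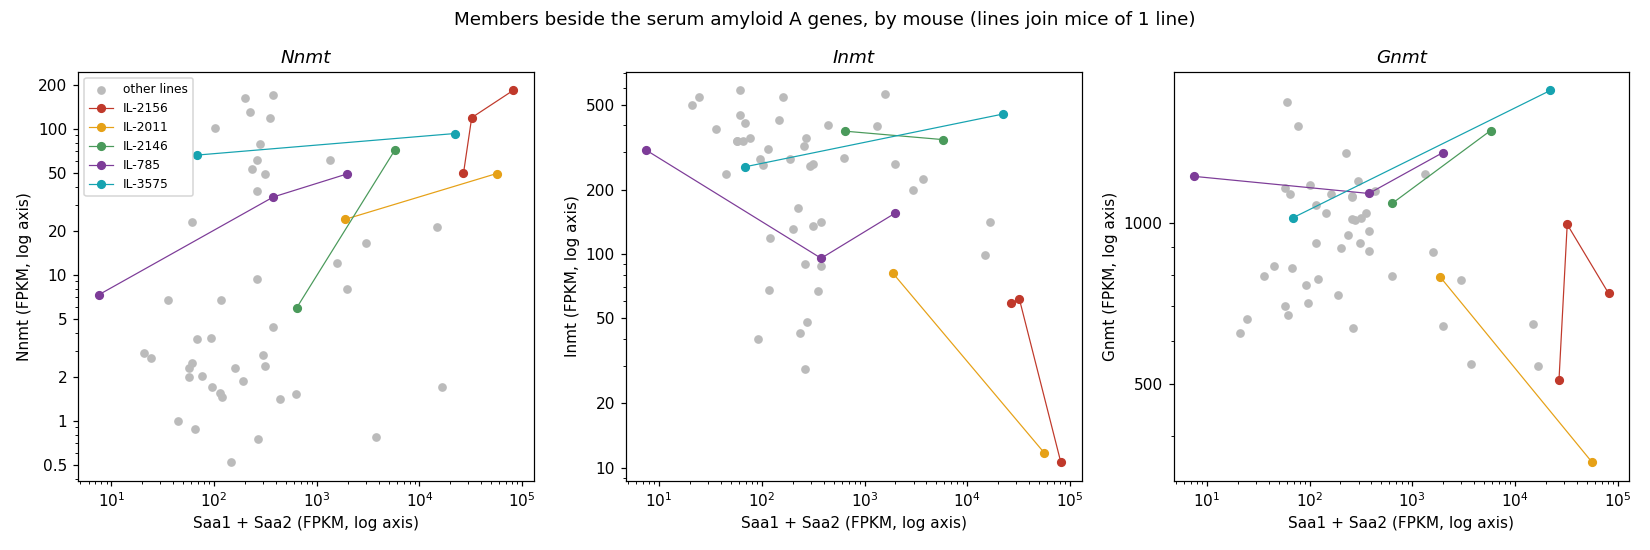
Nnmt, Inmt and Gnmt (FPKM, log axis) against the sum of Saa1 and Saa2 (FPKM, log axis) in each of 55 mice, with the mates of 5 lines joined. The 2 lowest Inmt values, 10.6 and 11.7 FPKM, are in the mice with the most Saa, and Nnmt in IL-785 and IL-2146 is lowest in the mate with the least. In IL-4052, not joined, Nnmt is lower in the mate with more Saa (4.35 against 37.6 FPKM).

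Gnmt, glycine N-methyltransferase, buffers the ratio of S-adenosylmethionine to S-adenosylhomocysteine and is among the most abundant methyltransferases of hepatocytes. The gene (ENSMUSG00000002769) is at chr17:46862613-46866117 of mm9, minus strand. Its lines overlapped widely, and none of the 28 neighbouring gaps exceeded the spread of mates (0.30). IL-3438 had the lowest mean, with 540.1 and 543 FPKM, and IL-2126 (1678 FPKM) and IL-1141 (1516), 1 mouse each, the highest. Gnmt was called higher in IL-3575 (0.59 ± 0.19), IL-2146 (0.59 ± 0.19) and IL-785 (0.57 ± 0.16). It was lower in IL-3438, having dropped by 0.78 ± 0.22 (adjusted p = 0.0112), and in IL-2011, by 0.73 ± 0.22 (adjusted p = 0.0175). In IL-2011 the 2 mice held 357 and 791 FPKM, and the lower was the mouse with a Saa sum of 56316 FPKM. IL-3575 also differed between mates, with 1022 and 1766 FPKM, and here the higher was the mouse with high Saa. The mate with the most Saa had more Gnmt in 11 lines and less in 10.

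Gamt, guanidinoacetate N-methyltransferase, carries out the last step of creatine synthesis. The gene (ENSMUSG00000020150) is at chr10:79720896-79723757 of mm9, minus strand. IL-2146 stood alone at the top with 265 and 277 FPKM, above the 194 FPKM of the next line, IL-2126, by the only neighbouring gap (0.48 on the log2(FPKM + 1) scale) wider than the spread of mates (0.26). Its rise of 1.35 ± 0.15 on the log2 scale had an adjusted p of 4.76e-08. The mouse with 277 FPKM had a Saa sum of 5788 FPKM and the other 638. Smaller rises were called in IL-3348 (0.50 ± 0.16) and IL-670 (0.43 ± 0.13). Gamt fell by 0.63 ± 0.18 in IL-2011, 0.60 ± 0.18 in IL-72 and 0.49 ± 0.15 in IL-2156, and all 3 of these lines contain mice with high Saa. Without the 5 high-Saa lines, Gamt was called lower in 5 others, by between 0.57 ± 0.12 in IL-1513 and 0.41 ± 0.11 in IL-3912, with IL-611, IL-2680 and IL-219 between them. Over the 21 lines the mate with the most Saa had less Gamt in 13 and more in 8. Within IL-2156 the levels were 89.2, 106 and 55.5 FPKM at Saa sums of 26806, 32252 and 81526 FPKM. The main isoform, Gamt-001 (ENSMUST00000105363), made up 91.9% or more in every mouse and its share did not pass the test among lines (adjusted p = 0.141).

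Nat1 and Nat2, the arylamine N-acetyltransferases, are encoded side by side on the plus strand of chromosome 8, Nat1 (ENSMUSG00000025588) at chr8:70014657-70016003 and Nat2 (ENSMUSG00000051147) at chr8:70018766-70026479 of mm9, with 2762 bases between them. The coding sequences are 84.0% identical over 873 bases and share 16 windows of 50 bases, the read length, so that some reads fit both genes. Nat2 ran from 3.01 to 20.7 FPKM between mice and had a mean over lines of 9.80 FPKM against 0.670 for Nat1. Nat1 reached 1.35 FPKM at most, on 1 to 48 fragments per mouse.

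Both genes had their lowest line mean in IL-1513. The 2 mice of that line held 0.03 and 0.08 FPKM of Nat1, or 4 fragments together, and every other mouse held 0.20 or more. Relative to library depth this was 0.0700 times the level of the other 20 lines (95% exact interval 0.0190 to 0.180, counting error only). In the fit, Nat1 fell by 3.77 ± 0.63 in IL-1513 (adjusted p = 5.78e-05), and it was higher in IL-611 by 0.98 ± 0.29. Nat2 held 3.01 and 3.40 FPKM in IL-1513 and fell by 1.69 ± 0.25 (adjusted p = 1.04e-05). It was also lower in IL-4457, with 3.07 and 4.04 FPKM, by 1.35 ± 0.24, and in IL-2680, with 5.42 and 7.62, by 0.64 ± 0.22 (adjusted p = 0.0457). This last call was lost without the 5 high-Saa lines (a fall of 0.53 ± 0.24, adjusted p = 0.132). Nat2 was higher in IL-2011, with 14.3 and 16.4 FPKM (0.73 ± 0.19), and in IL-785 (0.66 ± 0.16), where the 3 mice spread from 8.66 to 20.7. The mice of IL-1513 and IL-4457 lay below those of every other line with 2 or 3 mice. IL-557 departed from the shared order of the pair, with a high Nat2 (14.5 FPKM) and a low Nat1 (0.27).

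Nat8 acetylates cysteine S-conjugates in the last step of mercapturic acid formation. The gene (ENSMUSG00000030004) is at chr6:85780382-85782076 of mm9, minus strand, amid a cluster of related genes. Its coding sequence is 84.0% identical to that of Cml1, a gene with a mean over lines of 179 FPKM, and 61 windows of 50 bases are shared. The fragment estimate was a whole number in 20 of 55 mice only, so in the rest some reads were divided between genes and low Nat8 values are uncertain.

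The lines called higher for Nat8 were IL-219 with 24.5 and 29.6 FPKM (2.20 ± 0.45, adjusted p = 0.000687), IL-2011 with 21.9 and 26.4 (2.08 ± 0.45) and IL-2680 with 16.0 and 19.5 (1.57 ± 0.48). None of these mice overlapped those of the lines called lower, which the opposite calls themselves make likely. The lower lines were IL-2156 with 0.94, 1.04 and 1.90 FPKM, a fall of 2.31 ± 0.62 (adjusted p = 0.00856), and IL-2146 with 0.75 and 1.99, a fall of 2.20 ± 0.74 (adjusted p = 0.0357). High Saa did not go with 1 direction here: the IL-2011 mice, with Saa sums of 56316 and 1882 FPKM, were among the highest for Nat8, and those of IL-2156 among the lowest. Without the 5 high-Saa lines, IL-219 and IL-2680 were still called higher and no line was called lower. IL-2156 is among the lines left out, and the fall in IL-2146 was then 2.18 ± 0.79 (adjusted p = 0.0587), so its size was little changed. The intermixed lines split most widely for Nat8, with 0.36 FPKM in IL-1052 replicate 2 and 1.34 in IL-2750 replicate 2 against 6.16 to 14.2 in the other 3 mice. Leaving them out raised the share of variance between lines from 0.647 to 0.799.

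The share of variance between lines, computed on normal scores of FPKM over all 55 mice, was highest for Tpmt (0.763), Inmt (0.758) and Nnmt (0.747), followed by Nat8 (0.647), Gamt (0.620), Nat2 (0.600) and Gnmt (0.585). Nat1 took too few distinct values to be included. The median over 5949 variable genes was 0.592. Standard errors from leaving out each line in turn ran from 0.058 for Nnmt to 0.15 for Nat2. Gnmt, Gamt, Nat2 and Nat8 lay within their standard error of the median, and Tpmt, Inmt and Nnmt above it by more than theirs. Without scores, on log2(FPKM + 1), the share of Nat2 was 0.750.

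None of the 8 genes passed a test of relation to body weight or age. In limma fits on 29 line means, none of 16140 genes passed for either (0% called), and 7.53% and 5.32% had an unadjusted p under 0.05 for weight and age. Gnmt came closest among the 8 for weight, with a slope of -0.39 ± 0.19 on the log2 scale per 10 g (unadjusted p = 0.0547, adjusted p = 0.671). Nnmt had the steepest slopes and the widest errors, -1.07 ± 1.00 per 10 g and 0.67 ± 0.44 per week of age.

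For each member, the genes whose 29 line means followed it most closely were sought among 8745 other genes with a mean of at least 2 FPKM. The coefficients below are Spearman's rho across lines that share their libraries. Gnmt was followed by Ass1 (0.834) and Asl (0.822), which are consecutive enzymes of the urea cycle, and by Gls2 (0.743), the liver glutaminase. Gamt was followed by Atp5k (0.843) and Ndufs8 (0.738), subunits of ATP synthase and of respiratory complex I, and by Rrp9 (0.719). Inmt was followed by the carboxylesterase Ces1d (0.784), Tkt (0.693) and Bdh2 (0.676). IL-4032 was an exception, with the lowest Inmt of all lines (29.0 FPKM) and 296 FPKM of Ces1d.

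Nat2 was followed by Slc30a1 (0.848), a zinc exporter, and by Zbtb33 (0.821) and Fam149a (0.804). For Nat1 the list was Ehbp1 (0.700), Nat2 itself (0.644) and Ptpn3 (0.608), and for Nat8 it was Pnpt1 (0.658), Cml5 (0.633), a related gene from the same cluster, and Tmem70 (0.631). Tpmt was followed by Anxa7 (0.686), Slc35d2 (0.649) and Rdh16 (0.648), a retinol dehydrogenase. The genes nearest to Nnmt were Got1 (0.653), the cytosolic aspartate aminotransferase, Slc13a3 (0.635) and Orm2 (0.634), which encodes an acute-phase plasma protein. Among the members themselves the closest pairs were Nat1 with Nat2 (0.644) and Gnmt with Gamt (0.559), and the most opposed were Gamt with Nat8 (-0.34).

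**Figure D5:**
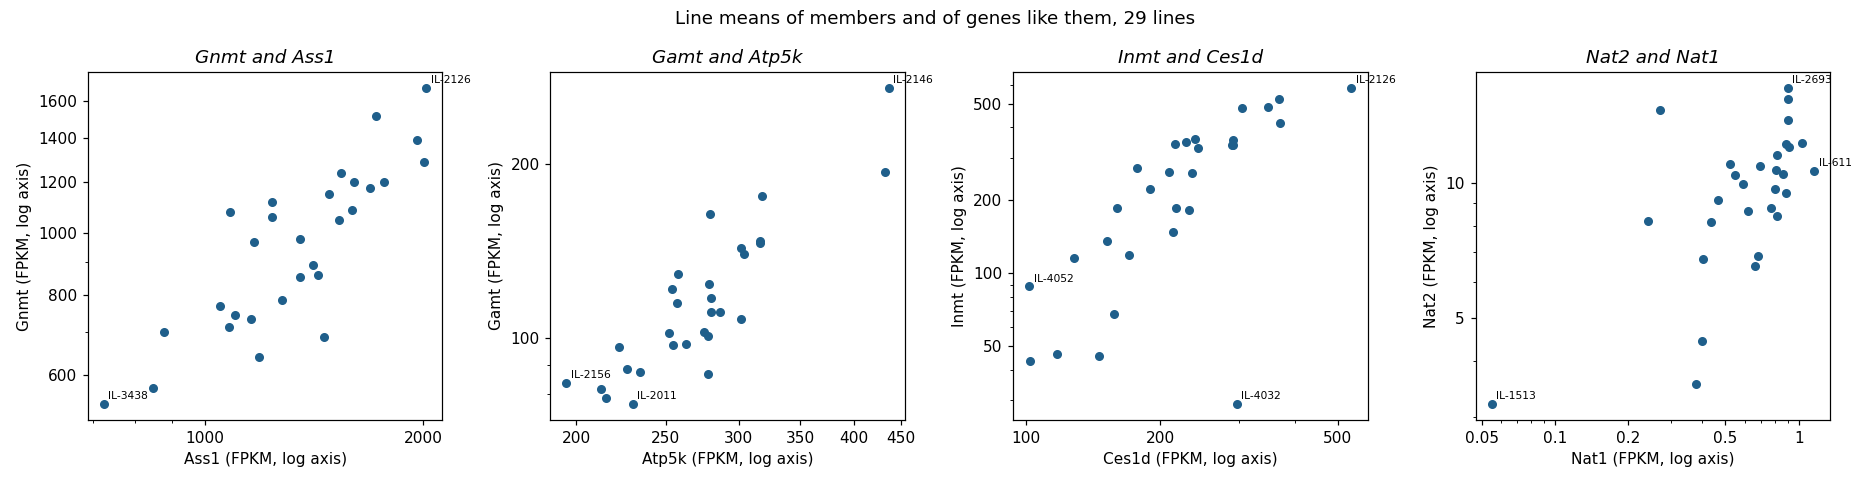
Line means (FPKM, log axes) of 29 lines for Gnmt with Ass1, Gamt with Atp5k, Inmt with Ces1d and Nat2 with Nat1, with the lines at either end named. Spearman's rho is 0.834, 0.843, 0.784 and 0.644, and IL-1513 is lowest for both Nat1 and Nat2.

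Most genes of the pathways around these enzymes differed among lines, as did most genes in general. Of 25 methionine cycle genes 24 differed among lines, all but Pemt (adjusted p = 0.265), beside 88.5% of all genes. The median share of variance of the 21 with enough distinct values was 0.580. Ahcy, which removes the S-adenosylhomocysteine left by every methyltransferase, ranged from 16.6 ± 2.52 FPKM in IL-4457 to 608 ± 59.4 in IL-2146 (SD, n = 2 each), the line with the most Gamt. Where a line extreme for a listed gene is also named for a member, here and below, a relation between the genes was not tested. Dmgdh, of choline breakdown, ran from 52.6 ± 15.2 (n = 3) in IL-670 to 204 FPKM in IL-557, and Cbs, which starts transsulphuration, had the lowest share of variance between lines in the list (0.149), with line means from 114 in IL-1141 to 212 ± 21.4 in IL-670.

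All 16 genes of nicotinamide and NAD metabolism passed, with a median share of variance of 0.677. Aox1 and Aox3, aldehyde oxidases that act on methylated nicotinamide and on many drugs, were both lowest in IL-2126 (8.72 and 42.5 FPKM) and highest in IL-1141 (112 and 499 FPKM). Kmo, of the kynurenine route to NAD, was also lowest in IL-2126 (55.9 FPKM), whereas Haao, a later step, was highest there (327 FPKM). IL-2126 had the least sequenced library of the panel, at 20542671 fragments, and is 1 mouse.

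Among other small-molecule methyltransferases 10 of 11 tested differed, all but Lcmt1 (adjusted p = 0.136). Hnmt, which inactivates histamine, was at 1.37 ± 0.014 FPKM in IL-3575 against 26.8 in IL-557. As3mt, which methylates arsenic, ran from 5.45 in IL-4141 to 30.0 ± 7.10 in IL-2156, and Mettl7b from 191 ± 30.4 in IL-785 to 553 in IL-2126. Of 8 other acetyltransferases tested 7 differed, and Cml3 did not pass (adjusted p = 0.702). Cml5 spread from 0.28 ± 0.27 FPKM in IL-2156, also the lowest line for Nat8, to 18.4 ± 3.73 in IL-3575. Cml1 ran from 103 ± 0.49 in IL-1061 to 381 in IL-1452, Sat1 reached 59.8 ± 2.34 in IL-4457, and Gnpnat1 ran from 14.8 in IL-4032 to 37.0 in IL-2126.

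The mercapturate and thiopurine routes, which contain Nat8 and Tpmt, were covered by 7 tested genes each, and all differed. In the first, Acy3, which removes the acetyl group from mercapturates, ran from 22.8 FPKM in IL-4141 to 140 ± 22.3 in IL-2146, 1 of the 2 lines called lower for Nat8. Ggt6 ran from 0.62 in IL-4141 to 11.5 ± 1.24 in IL-72, Acy1 from 12.4 ± 1.36 in IL-611 to 31.0 in IL-2126 and Lap3 from 95.4 ± 2.60 in IL-519 to 156 in IL-4141. In the second, Xdh, which oxidizes mercaptopurine, ran from 4.91 ± 1.14 (n = 3) in IL-785, a line called higher for Tpmt, to 31.0 ± 6.99 in IL-2680. Hprt, which activates thiopurines, ran from 18.3 ± 1.10 in IL-3575 to 61.8 in IL-557. Impdh2 was lowest in IL-785 (11.0 ± 1.14) and highest in IL-2126 (28.7), and Itpa ran from 8.75 ± 0.53 in IL-3575 to 18.9 in IL-2126.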

How the data were processed

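Liver RNA of 55 mice was sequenced as stranded polyA libraries, paired reads of 50 bases. The authors aligned reads with Bowtie 2 and estimated levels with RSEM 1.2.18 on mm9 and Ensembl annotation, pooling no mice. The deposited files hold expected counts (fragments, not normalized), TPM, FPKM and, per isoform, a percent of the gene's transcripts (IsoPct). Per mouse, 9.49% to 12.9% of all expected counts, zeros included, were not whole. Depth per mouse and its limits stand in the report, and counting intervals cover counting error only. Aligning to 1 reference can lower estimates where a line's alleles differ from it; this was not tested. Symbols came from a gene table that matched 98.9% of identifiers, and coordinates and sequence from mm9 with Ensembl models whose lengths matched the files for all 24 member isoforms.

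Groups are the lines on the labels. Expected counts, rounded, were fitted with edgeR 4.0.16 (TMM, quasi-likelihood F test, filterByExpr) over the 47 mice of 21 lines with at least 2 mice, and each line was set against the mean of the other lines in that fit. Isoform percentages, converted to normal scores, were tested with limma 3.58.1, for isoforms of genes reaching 2 FPKM and with at least 12 rounded levels. Adjusted p is Benjamini-Hochberg over all features (and lines), threshold 0.05, and tests are two-sided. Contrasts share mice and are not independent. Share of variance is the intraclass correlation, a description. Weight and age slopes used limma on line means of log2 CPM (prior count 2). Scripts were tested on simulated data. Members, pathway lists (named from each: the 3 genes with the highest and the 1 with the lowest share of variance, some of which are not reported here), marker lists and the 3 nearest genes per member follow stated rules, but members and lists were chosen with earlier results of these data known. The Saa, muscle and 300-fragment limits and the 5% and 20% cuts for Nnmt-002 were chosen after values were seen. Alternatives were other normalizations, filters, tools (DESeq2 1.42.0), units, pseudocounts, left-out lines and left-out mice.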

Additional observations from a re-analysis of the deposited data

How the results depend on the processing

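No paired analysis was possible because nothing in the labels pairs a mouse of 1 line with a mouse of another. The replicate numbers used here only count the mice within a line. The number of genes that differed among lines was 13523 and stayed between 13129 and 13599 when each mouse was left out in turn, in fits that kept the dispersion trend of the full fit. That of isoform percentages was 6020 and ranged from 5210 to 6452; with 1 isoform per gene it was 2225, since fewer isoforms were tested. The median share of variance of the members ranged from 0.618 to 0.737. No gene passed for body weight or age under any alternative run. All 8 members passed the test among lines under each alternative that tested them. Among the isoforms named, under the alternatives that tested them, Tpmt-002 alone lost its call (adjusted p = 0.0647 without the 5 lines with high Saa1 and Saa2). Gamt-001 gained one (adjusted p = 0.0380, without IL-611 replicate 1). The alternative that required at least 50 counts in every mouse could not test the Nnmt isoforms, since 1 mouse had 14 Nnmt fragments. Without scores, on log2(FPKM + 1), the share of variance was 0.850 for Tpmt, 0.835 for Nnmt, 0.750 for Nat2 and 0.668 for Gamt. It was 0.651 for Inmt, 0.644 for Nat8 and 0.576 for Gnmt, and the cause of the shifts was not tested. Nat1 and low Nat8 are limited by few fragments, and the lines with 1 mouse by having no replicate.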
